A study of Homo sapiens with 18 samples.

Results

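The replication-dependent histone genes are the human genes, named HIST1H, HIST2H, HIST3H and HIST4H in GENCODE release 29, that encode the linker histone H1 and the core histones H2A, H2B, H3 and H4. The annotation held 90 such genes, of which 19 were pseudogenes, and 67 of the remaining genes were in the counts table of 60252 genes. HIST1H2BF, HIST1H2BG, HIST1H4B and HIST1H4F were not analysed here. The rule kept 27 members, those with 10 or more counts in at least 2 libraries. The same limit was passed by 22619 genes of the whole table. The kept members were 3 H1, 6 H2A, 9 H2B, 3 H3 and 6 H4 genes, 24 of them in the HIST1 cluster on chromosome 6, 2 in HIST3 on chromosome 1 and 1, HIST4H4, on chromosome 12.

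RNA was sequenced from MCF-10A cells, a line of human breast epithelium that grows without limit but forms no tumours, kept for 8 days as 3D structures in Matrigel, a gel of basement membrane proteins. The groups were SRSF2-OE, SRSF4-OE, SRSF6-OE, SRSF9-OE and TRA2B-OE, cells stably carrying a retroviral construct with the coding sequence of that splicing regulator, and Control, cells with the empty vector PWZL. Every group therefore carried the retroviral backbone, and whether a line was a single clone or a pool is not stated in the labels. The 18 samples were runs of 14 libraries. SRSF2-OE had 3, SRSF9-OE had 3, and SRSF4-OE, SRSF6-OE, TRA2B-OE and Control had 2 apiece. In those last 4 groups, replicates 1 and 2 are lanes of a single library and were summed, and that library is called replicate 1-2. The 4 summed libraries are described by a library ID and the other 10 by a number, here called the 2 label sets. Nothing in the labels ties the libraries to separate cultures; the p-values reflect variation among libraries alone, and that variation may be technical.

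Most replication-dependent histone mRNAs end in a conserved stem-loop and carry no poly(A) tail. The stem-loop binding protein SLBP and U7 snRNP direct their 3′ end processing, and the mRNAs accumulate in S phase and are degraded when DNA synthesis stops. Some of these genes, among them HIST1H2AC, HIST1H2BD, HIST1H2BK, HIST1H1C and HIST2H2BE, are also known to make transcripts that read past the stem-loop and are polyadenylated, in particular in cells that leave the cell cycle. The Illumina stranded mRNA kit named in the labels captures polyadenylated RNA, so the values below are of whatever histone RNA such a library retains and not of all histone mRNA in the cells.

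The stem-loop was searched for in the GENCODE release 29 transcripts as the histone stem-loop consensus of 16 bases. It was present in an annotated transcript of 19 of the 27 kept members. In 15 of those it lay 100 or more bases before a transcript end, so that the annotation itself holds a transcript running past it. The sequences of well-measured members are shown to make that structure visible, with the stem-loop in capitals and 5 flanking bases on each side.
HIST1H2AC: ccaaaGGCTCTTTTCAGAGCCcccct
HIST3H2A: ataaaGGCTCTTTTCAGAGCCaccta
HIST1H2AG: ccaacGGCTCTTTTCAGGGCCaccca
HIST1H2BD: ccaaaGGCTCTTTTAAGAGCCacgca
HIST1H3E: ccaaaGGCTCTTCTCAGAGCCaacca
HIST1H4H: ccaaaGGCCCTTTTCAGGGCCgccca
HIST1H4I: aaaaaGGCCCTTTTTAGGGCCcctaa
The H2A, H2B and H3 genes shown share the opening GGCTCTT and the H4 genes the opening GGCCCTT. The form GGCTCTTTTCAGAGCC was the most frequent, in 16 of the 67 members, 10 of them kept. In HIST1H2AC, the most highly counted member, the stem-loop began at base 525 of the transcript and was followed by 1128 further bases, and the last 40 of these held a poly(A) signal (AATAAA or ATTAAA). HIST1H3E had 1862 bases after it, HIST1H2AG 1761, HIST1H4H 1655, HIST3H2A 390 and HIST1H4I 212. HIST1H2BD had 39 after it in the transcript with the stem-loop. For HIST1H2BK and HIST1H1C, no annotated transcript held the stem-loop.

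Of the 40 members not kept, 28 lay outside the HIST2 cluster. Among these, 2 had a stem-loop in an annotated transcript, and 0 had it 100 or more bases before an end. Their median exon length was 394.5 bases (297 to 775), against 950 bases (312 to 5477) for the kept members. Reads from an extended transcript would count only where the annotation covers it, so low counts in these genes cannot be told apart from a short annotation.

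The 12 HIST2 members could not be assessed at all. They held 0 to 4 counts each over the 14 libraries, and 11 of them formed, with BOLA1, SV2A, SF3B4 and MTMR11, an unbroken run of 15 protein-coding genes with 4 or fewer counts. SF3B4 encodes a subunit of the U2 snRNP that splicing in every cell uses, and it was listed at 1 count. The low stretch was longer than the cluster: between NOTCH2, with 107750 counts, and the next gene above 10000 counts lay 64 protein-coding genes, of which the 52 that were not HIST2 members had a median of 18 counts. The median over the 1999 protein-coding genes of chromosome 1 was 8022 counts. The HIST2 genes, HIST2H2BE included, are therefore listed at or near 0 together with their neighbours, and nothing about their expression can be read from that. The cause was not tested.

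**Figure D1:**
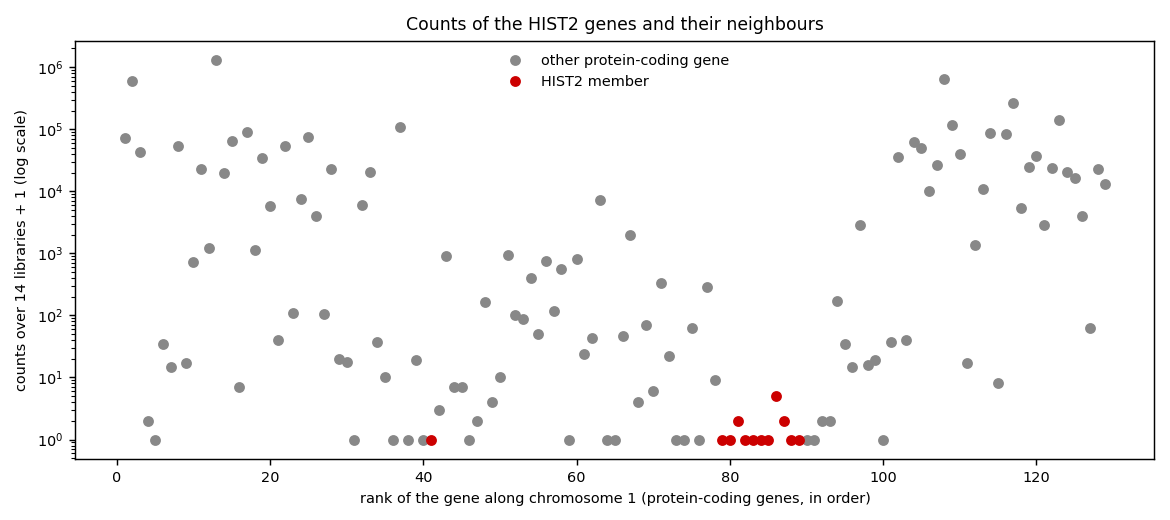
Counts over the 14 libraries plus 1 (y axis, log scale) for protein-coding genes in their order along chromosome 1 (x axis, rank), with HIST2 members in red and other genes in grey. The red points lie at 0 to 4 counts inside a run of 64 genes that all stay under 10000 counts, while NOTCH2, just before it, has 107750 counts.

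Libraries held 42959069 to 121601376 counts, which puts 10 counts at well under 1 CPM (counts per 1e6 counts) in every library. Mammary epithelial markers were present (KRT5 at 7076 to 20002 CPM, TP63 at 113 to 255 CPM), but EPCAM, of the same list, was at 0.54 to 11.4 CPM. Of the 10 matched markers of other cell types, the 8 other than COL1A1 and PDGFRB reached at most 0.183 CPM, with ADIPOQ at 0 in every library. PDGFRB reached 2.68 CPM and COL1A1 was at 44.0 to 277 CPM. SRSF9, SRSF4 and TRA2B were higher in every library of their own group than in both Control libraries, and so was SRSF2. TRA2B and SRSF2 did overlap the other overexpression groups, which SRSF9 and SRSF4 did not. TRA2B was at 147 to 201 CPM in TRA2B-OE, 128 to 168 CPM in those groups and 105 to 106 CPM in Control. SRSF2 was at 214 to 396 CPM in SRSF2-OE, 194 to 272 CPM in those groups and 176 to 204 CPM in Control. SRSF6 overlapped Control itself, at 283 to 417 CPM in the libraries labelled SRSF6-OE and 239 to 400 CPM in Control, so that group is called by its label only. Mitochondrial transcripts took 6.45% to 16.4% of counts. In bulk RNA, fewer cells of a type and less RNA per cell cannot be told apart.

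Summed over the 27 kept members, histone transcripts made up 98.9 to 259 CPM per library (TMM-normalised, as are all CPM below). The sum was 155, 152 and 192 CPM in SRSF2-OE, 133 and 126 CPM in SRSF4-OE, 105 and 98.9 CPM in SRSF6-OE, 150.1, 167 and 140.3 CPM in SRSF9-OE, 186 and 158 CPM in TRA2B-OE, and 259 and 143 CPM in Control. Both SRSF6-OE libraries and both SRSF4-OE libraries lay below every other library, and Control replicate 1-2 lay above every other. The 2 Control libraries stood further apart (201 ± 82.2 CPM, SD, n = 2) than any overexpression group (the widest being SRSF2-OE at 166 ± 22.3 CPM, n = 3), so each difference from Control depends on which Control library it is set against. The 8 members with the most counts made up 88.7% to 93.5% of the sum in each library, and HIST1H2AC alone 21.6% to 32.7%.

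The levels were very uneven. Per kilobase of exon in GENCODE release 29, which may differ from the regions the authors counted, HIST1H2BK averaged 63.0 CPM over the 14 libraries, HIST1H1C 28.8, HIST1H2AC 25.4, HIST3H2A 20.03, HIST1H2BD 14.7 and HIST1H4I 9.99, and the other 21 kept members 3.18 or less. HIST1H2BK and HIST1H1C are annotated by little more than their coding sequences (381 and 642 bases of exon), so their values per kilobase depend on that annotation; how far was not tested. HIST1H2AC, HIST1H2BD, HIST1H2BK and HIST1H1C, the 4 measurable genes known for polyadenylated transcripts, were thus all among the 5 highest. In plain CPM, 6 members averaged 10 or more and 14 averaged 1 or more. Because histone coding sequences are nearly identical and the sources used here do not say what was done with reads that map to several copies, the level of a single member is uncertain to that extent.

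**Figure D2:**
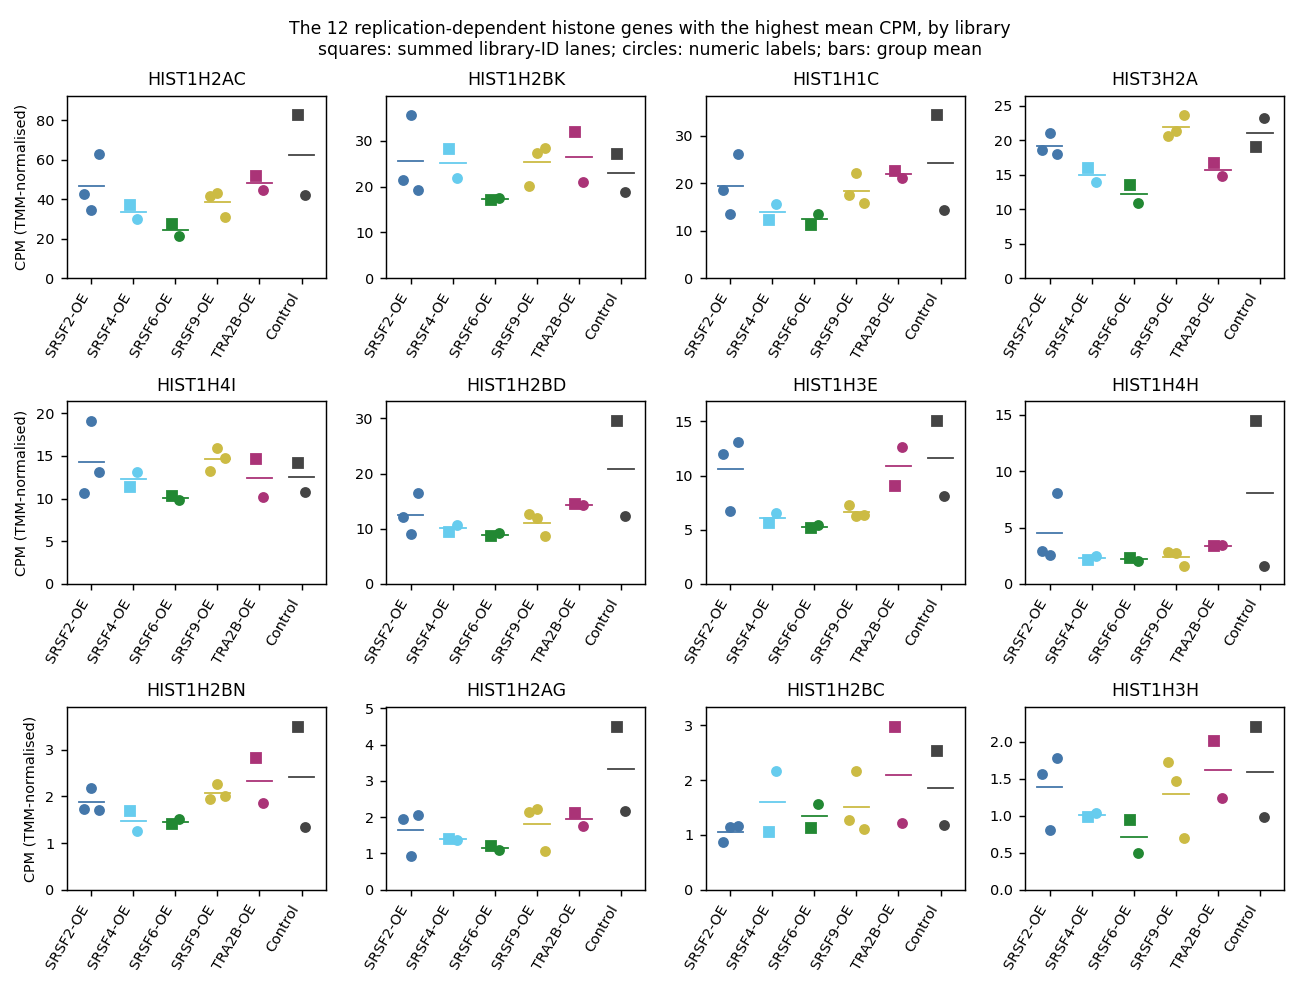
CPM (y axis, from 0) of the 12 members with the highest mean CPM, in each library of the 6 groups (x axis); squares are the summed library-ID lanes, circles the libraries with numeric labels, bars the group means. HIST1H2AC was at 27.4 and 21.3 CPM in SRSF6-OE and at 82.7 and 42.4 CPM in Control; in several panels Control replicate 1-2 stands alone at the top.

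Among linker histones, HIST1H1C (H1.2, which binds DNA between nucleosomes) was the measured member. It stood at 18.6, 13.4 and 26.2 CPM in SRSF2-OE, 12.3 and 15.6 CPM in SRSF4-OE, 11.2 and 13.6 CPM in SRSF6-OE, 17.5, 22.2 and 15.8 CPM in SRSF9-OE, 22.7 and 21.2 CPM in TRA2B-OE, and 34.4 and 14.3 CPM in Control. The SRSF6-OE libraries lay below both Control libraries, but replicate 3 of SRSF6-OE, at 13.6 CPM, was close to replicate 3 of Control, at 14.3 CPM. HIST1H1D and HIST1H1E averaged 0.0896 and 0.143 CPM and were too low to be tested.

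The H2A genes supply the partner of H2B in the nucleosome's outer dimers. HIST1H2AC, at 42.9, 34.4 and 62.8 CPM in SRSF2-OE, 37.1 and 30.1 CPM in SRSF4-OE, 27.4 and 21.3 CPM in SRSF6-OE, 41.7, 43.0 and 31.1 CPM in SRSF9-OE, 52.1 and 44.8 CPM in TRA2B-OE, and 82.7 and 42.4 CPM in Control, had its lowest values in SRSF6-OE. Neither the SRSF4-OE nor the SRSF6-OE libraries overlapped Control. HIST3H2A, from the small HIST3 cluster, stood at 18.6, 21.1 and 18.1 CPM in SRSF2-OE, 15.9 and 13.9 CPM in SRSF4-OE, 13.5 and 10.8 CPM in SRSF6-OE, 20.6, 21.3 and 23.6 CPM in SRSF9-OE, 16.6 and 14.8 CPM in TRA2B-OE, and 19.0 and 23.2 CPM in Control. Of the 6 members that averaged 10 CPM or more it was the only one in which Control replicate 1-2 was not above Control replicate 3, and SRSF4-OE, SRSF6-OE and TRA2B-OE all lay below both. HIST1H2AG was at 1.95, 0.939 and 2.07 CPM in SRSF2-OE, 1.41 and 1.38 CPM in SRSF4-OE, 1.22 and 1.10 CPM in SRSF6-OE, 2.14, 2.23 and 1.05 CPM in SRSF9-OE, 2.12 and 1.75 CPM in TRA2B-OE, and 4.49 and 2.16 CPM in Control. HIST1H2AE, HIST1H2AI and HIST1H2AK averaged 0.865, 0.3604 and 0.233 CPM.

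H2B completes the dimer with H2A. HIST1H2BK was at 21.5, 35.6 and 19.3 CPM in SRSF2-OE, 28.2 and 21.9 CPM in SRSF4-OE, 17.2 and 17.4 CPM in SRSF6-OE, 20.1, 27.4 and 28.4 CPM in SRSF9-OE, 32.0 and 21.0 CPM in TRA2B-OE, and 27.1 and 18.7 CPM in Control, with its highest value in SRSF2-OE replicate 2. HIST1H2BD was at 12.1, 9.09 and 16.5 CPM in SRSF2-OE, 9.40 and 10.7 CPM in SRSF4-OE, 8.68 and 9.15 CPM in SRSF6-OE, 12.7, 11.996 and 8.60 CPM in SRSF9-OE, 14.4 and 14.3 CPM in TRA2B-OE, and 29.5 and 12.2 CPM in Control. SRSF2-OE replicate 2, which had the most HIST1H2BK, was among the lower ones for HIST1H2BD, so these 2 members of a class did not follow each other across libraries. HIST1H2BN and HIST1H2BC ranged over 1.25 to 3.49 and 0.864 to 2.97 CPM. The sources used here do not say whether counting used strand, so reads of an overlapping gene on the other strand cannot be told apart.

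H3 and H4 form the tetramer at the centre of the nucleosome. HIST1H3E stood at 11.95, 6.70 and 13.1 CPM in SRSF2-OE, 5.60 and 6.54 CPM in SRSF4-OE, 5.18 and 5.401 CPM in SRSF6-OE, 7.32, 6.23 and 6.35 CPM in SRSF9-OE, 9.08 and 12.7 CPM in TRA2B-OE, and 15.0 and 8.14 CPM in Control. All libraries of SRSF4-OE, SRSF6-OE and SRSF9-OE lay below both Control libraries. HIST1H4I was the steadiest of the well-counted members, at 9.83 to 19.1 CPM over the 14 libraries with a coefficient of variation of 20.4%. Of the 12 members with the highest mean CPM, HIST1H4H was the most variable, at 14.4 CPM in Control replicate 1-2 against 1.58 to 8.07 CPM in the other libraries. HIST1H3H ranged over 0.495 to 2.20 CPM.

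Each overexpression group was then set against Control with edgeR's quasi-likelihood test, fitted on all 21326 genes that passed its filter, with group and label set as terms and Benjamini-Hochberg adjustment over all genes. Of the 27 kept members, 23 passed the filter; HIST1H1D, HIST1H1E, HIST1H2BL and HIST1H4D did not. All 5 contrasts share the same 2 Control libraries, so they are not independent of each other. No member had an adjusted p under 0.05 in any contrast: 0 of 23 against 0% of all genes tested in SRSF2-OE, SRSF4-OE and SRSF9-OE, 0.00469% in SRSF6-OE and 0.00938% in TRA2B-OE. limma-voom also called 0 members in each. Log2 fold changes below are edgeR estimates ± standard error.

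The lowest histone levels were in SRSF6-OE. All 23 tested members had a log2 fold change below 0 there, against 52.1% of all genes, and the members' median was -0.96, against -0.03 over all genes. Without edgeR's adjustment, 9 members had a p under 0.05, against 19.5% of all genes; all 9 were lower, against 9.1% of all genes. DESeq2, the alternative tool, called 3 of 23, against 5.81% of the 21312 genes it tested, and all 3 were lower, against 2.03%. These were HIST1H2AC (edgeR log2 fold change -1.31 ± 0.29, adjusted p = 0.136; DESeq2 adjusted p = 0.00504), HIST3H2A (-0.81 ± 0.19, adjusted p = 0.141; DESeq2 adjusted p = 0.0076) and HIST1H2AG (-1.47 ± 0.47, adjusted p = 0.181; DESeq2 adjusted p = 0.0436). All 3 are H2A genes, but HIST1H3E (DESeq2 adjusted p = 0.0547) and HIST1H2BD (DESeq2 adjusted p = 0.0551) fell just outside the threshold. DESeq2 gave no adjusted p in SRSF6-OE for HIST1H2AI, HIST1H2AK, HIST1H3G, HIST1H4E and HIST1H4K, so it could not call them. The same members had none in SRSF2-OE, and HIST1H2AK and HIST1H4K had none in SRSF4-OE. By class, the median was -1.07 over 6 H2A, -0.64 over 8 H2B, -1.12 over 3 H3 and -0.77 over 5 H4 genes. The other 6 with an unadjusted edgeR p under 0.05 were HIST1H1C (-0.93), HIST1H2AE (-1.03), HIST1H2BD (-1.18), HIST1H2BE (-1.24), HIST1H3E (-1.13) and HIST3H2BB (-1.32), which passed neither tool after adjustment. In 14 of 23 members both SRSF6-OE libraries lay below both Control libraries, against 24.4% of all genes.

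How far SRSF6-OE lay below Control was not the same in the 2 label sets, a difference that was not tested. SRSF6-OE replicate 1-2 was below Control replicate 1-2 in 23 of 23 members, at a median log2 ratio of -1.15, and 52.5% of all genes were lower in that pair. SRSF6-OE replicate 3 was below Control replicate 3 in 17 of 23, at a median of -0.42, with 50.9% of all genes lower. Leaving Control replicate 1-2 out of the fit gave 18 of 23 lower and a median of -0.40, and leaving Control replicate 3 out gave 22 of 23 and -1.40. HIST1H2AC (21.3 CPM in SRSF6-OE replicate 3 against 42.4 CPM in Control replicate 3), HIST3H2A (10.8 against 23.2 CPM) and HIST1H2AG (1.10 against 2.16 CPM) were lower within both label sets.

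In SRSF4-OE, 19 of 23 members had a log2 fold change below 0, against 53.1% of all genes, with a median of -0.51. Unadjusted edgeR p-values were under 0.05 for 6 members, against 14.9% of all genes, and all 6 were lower, against 7.82%: HIST1H2AC (-0.85 ± 0.29), HIST3H2A (-0.51 ± 0.18), HIST1H2BD (-0.997 ± 0.39), HIST1H2BE (-0.98 ± 0.42), HIST1H3E (-0.93 ± 0.37) and HIST1H2AG (-1.20 ± 0.47). Their adjusted p-values ran from 0.259 to 0.317, and DESeq2 called 0 of 23, against 2.7% of all genes. In 8 of 23 members both SRSF4-OE libraries lay below both Control libraries, against 27.2% of all genes. The direction rested on Control replicate 1-2: without it, 10 of 23 members were lower and the median was 0.07. Against Control replicate 3 alone, SRSF4-OE replicate 3 was lower in 11 and higher in 12. The 6 members named above, HIST3H2A (13.9 against 23.2 CPM in that pair) among them, were part of the 8 and so lower in both label sets.

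SRSF2-OE, SRSF9-OE and TRA2B-OE showed no common direction. Members with a log2 fold change below 0 numbered 11 of 23 in SRSF2-OE (47% of all genes), 15 of 23 in SRSF9-OE (49.8%) and 10 of 23 in TRA2B-OE (50.1%), and the medians were 0.02, -0.15 and 0.07. Unadjusted edgeR p-values under 0.05 numbered 0 of 23 in SRSF2-OE (13.4% of all genes), 0 of 23 in SRSF9-OE (4.47%) and 2 of 23 in TRA2B-OE (12%). DESeq2 called 0 members in each, against 2.37%, 0.0704% and 2.12% of all genes. The 2 in TRA2B-OE were HIST3H2A (-0.43 ± 0.18, edgeR adjusted p = 0.397) and HIST1H3G (1.64 ± 0.65, edgeR adjusted p = 0.377). HIST1H3G, an H3.1 gene, was at 0.720 and 0.788 CPM in TRA2B-OE and 0.199 and 0.294 CPM in Control, the only member among these 3 groups with a higher estimate and an unadjusted p under 0.05. These 3 medians also moved with the Control library: without Control replicate 1-2 they were 0.44, 0.31 and 0.68, and without Control replicate 3 they were -0.43, -0.74 and -0.22.

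**Figure D3:**
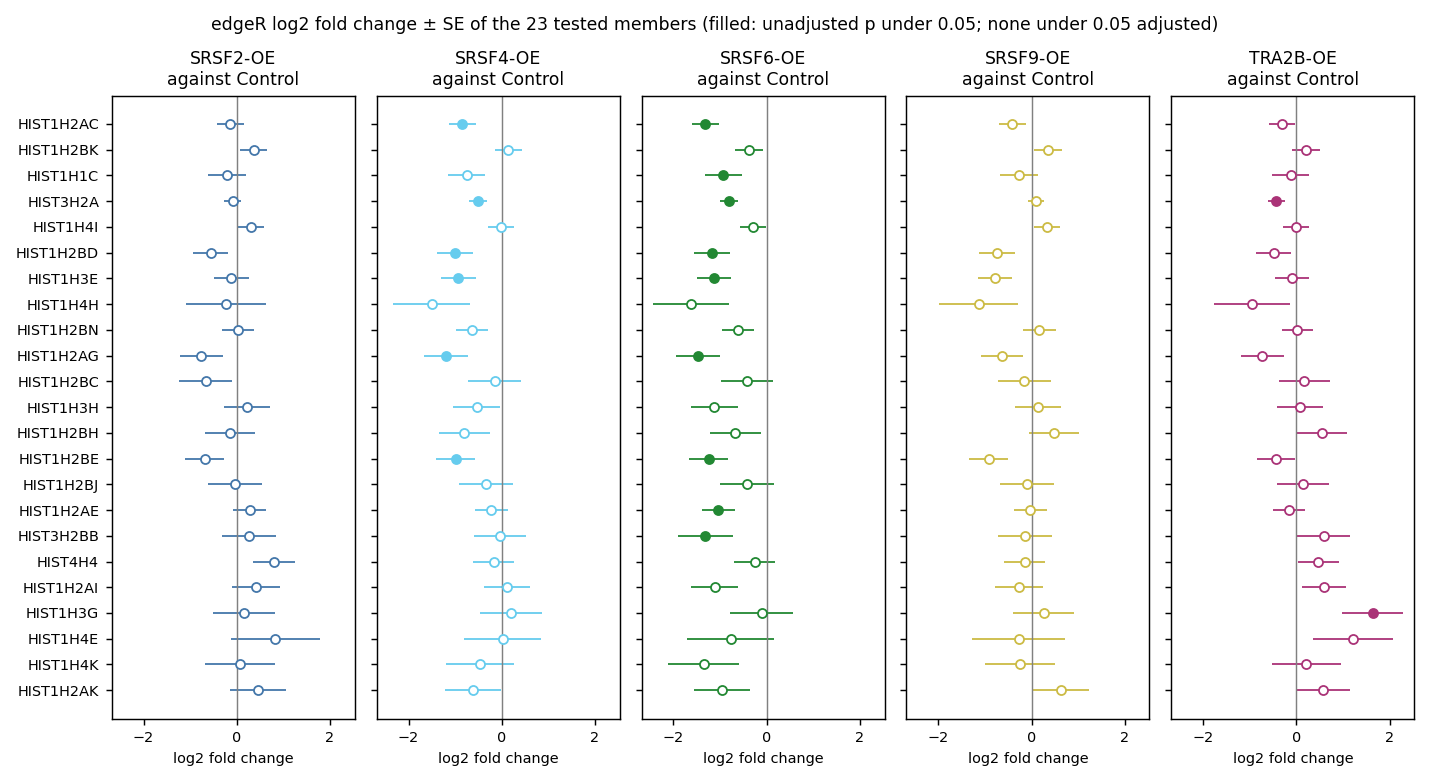
edgeR log2 fold change against Control (x axis) with its standard error, for the 23 tested members (y axis, ordered by mean CPM) in the 5 overexpression groups; filled points have an unadjusted p under 0.05. All 23 points lie left of 0 in SRSF6-OE and 19 in SRSF4-OE, while the other 3 groups scatter about 0.

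Tested over the 6 groups together, edgeR's F test called 0 of 23 members, against 0.0422% of all genes, with 3 members at an unadjusted p under 0.05 (13.6% of all genes). DESeq2's likelihood ratio test called 2, HIST3H2A (adjusted p = 0.00599) and HIST1H2AC (adjusted p = 0.0168), against 7.42% of all genes. The 3 with an unadjusted edgeR p under 0.05 were these 2 and HIST1H3E.

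The histone levels were also compared with proliferation, since S-phase cells hold most histone mRNA. The proliferation score was the mean log2 CPM of 30 mitosis and 37 DNA replication genes, and it ran from 3.27 in Control replicate 1-2 to 5.41 in TRA2B-OE replicate 3. Mitosis genes had log2 fold changes above 0 in 30 of 30 in SRSF2-OE, SRSF4-OE, SRSF6-OE and TRA2B-OE, with medians of 0.56, 1.37, 1.55 and 1.503, and in 29 of 30 in SRSF9-OE, with a median of 0.39. In SRSF6-OE, 34 of 36 tested replication genes were above 0 as well, with a median of 0.95, while the histone median was -0.96. DESeq2 called 4 of 30 mitosis and 9 of 36 replication genes higher in SRSF6-OE, against 3.78% of all genes, and edgeR called 0 of either. The replication difference was much smaller in the numeric label set: SRSF6-OE replicate 1-2 was above Control replicate 1-2 in 36 of 37 replication genes, and SRSF6-OE replicate 3 was above Control replicate 3 in 21 and below it in 15. The mean log2 CPM of the replication genes was 4.61 against 2.93 in the first pair and 3.91 against 3.81 in the other. Mitosis genes were higher in 30 of 30 and 28 of 30. Their mean log2 CPM was 3.67 in Control replicate 1-2 and 4.94 in Control replicate 3. SRSF2-OE replicate 2, at 3.86, and SRSF9-OE replicate 3, at 3.69, lay between these 2. Every other overexpression library lay above both. With the score as a covariate in edgeR's fit, the members' median log2 fold change was -0.29 in SRSF2-OE, -0.95 in SRSF4-OE, -1.34 in SRSF6-OE, -0.32 in SRSF9-OE and -0.26 in TRA2B-OE, so that SRSF2-OE and TRA2B-OE turned from just above 0 to below it. Members lower in that fit numbered 15, 20, 21, 17 and 14 of 23. The library with the lowest score, Control replicate 1-2, held the highest histone sum.

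Across the 14 libraries, no member's log2 CPM correlated with the score past an adjusted p of 0.05. Each of 21260 genes outside the score was tested with a two-sided permutation test of 100000 resamples; 1.1% of them were called positive and 0.146% negative. The members' Pearson r ran from -0.57 to 0.53. HIST1H4I had r = -0.57 (permutation p = 0.0348, adjusted p = 0.484) and Spearman rho = -0.53 (permutation p = 0.0527, adjusted p = 0.530). HIST3H2A had r = -0.55 (permutation p = 0.0398, adjusted p = 0.509) and rho = -0.68 (permutation p = 0.00949, adjusted p = 0.256). HIST1H2BN had r = -0.55 (permutation p = 0.0413, adjusted p = 0.517) and rho = -0.44 (permutation p = 0.119, adjusted p = 0.685). Without the 2 libraries farthest from the median score, Control replicate 1-2 and SRSF9-OE replicate 3, r was -0.57 for HIST1H4I, -0.50 for HIST3H2A and -0.26 for HIST1H2BN.

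Within the 10 libraries with numeric labels, r ran from -0.64 to 0.83 and was above 0 for the members other than 4. The highest values were 0.83 for HIST1H4E, 0.79 for HIST3H2BB, 0.76 for HIST1H2BE, 0.68 for HIST1H3G and 0.66 for HIST1H2BD, against 0.34, 0.35, -0.10, 0.53 and -0.19 over the 14 libraries. The 4 below 0 were HIST1H2BK (-0.64), HIST1H4I (-0.60), HIST3H2A (-0.56) and HIST1H2BN (-0.43), which were also below 0 over the 14 libraries. HIST1H2AC had r = -0.21 over the 14 libraries and 0.28 over the 10. The histone sum had r = -0.37 and rho = -0.14 with the score over all libraries, r = -0.02 without Control replicate 1-2, r = -0.05 without the 2 farthest libraries and r = 0.08 in the 10 with numeric labels, so the negative value rested on Control replicate 1-2. With score and levels centred within each group, 2 of 23 members passed the adjusted threshold, against 12.7% of all genes in that setting, a share close to theirs; HIST1H2BK had the strongest value in that setting, r = -0.85.

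**Figure D4:**
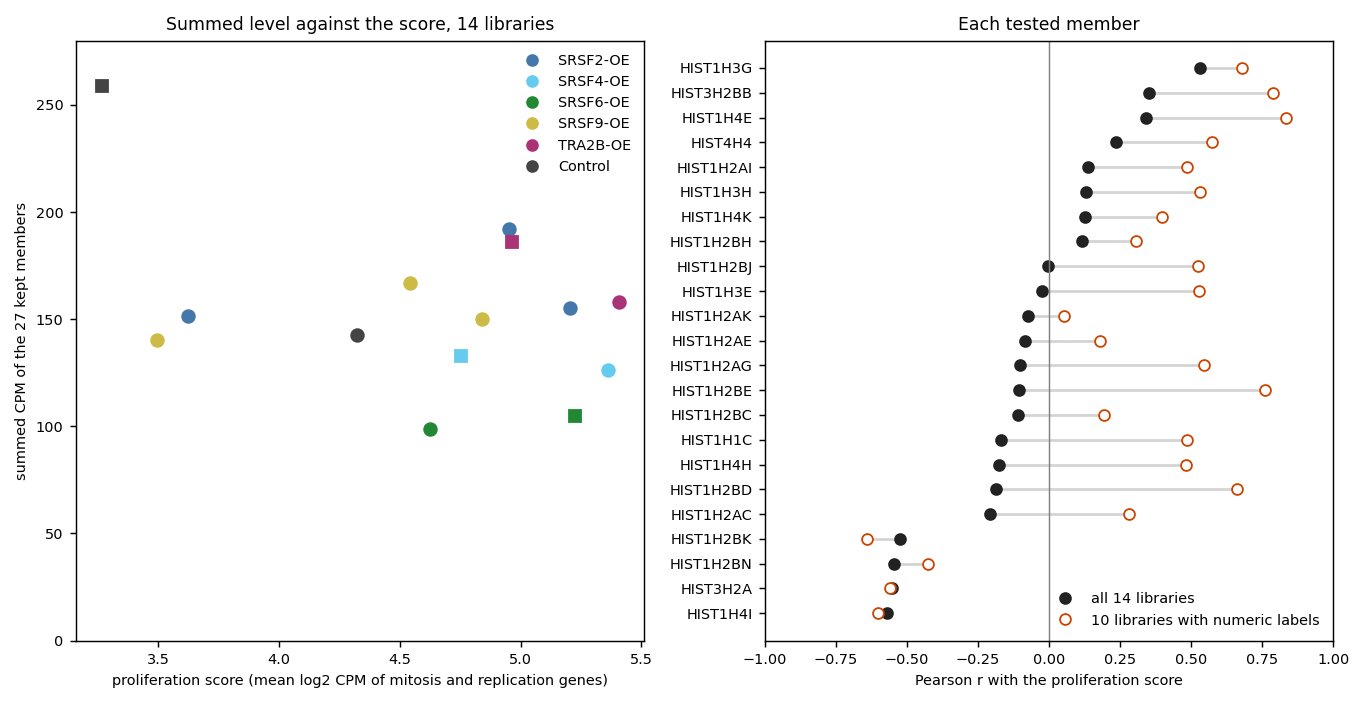
Left, summed CPM of the 27 kept members (y axis) against the proliferation score (x axis) in 14 libraries, with squares for summed library-ID lanes; Control replicate 1-2 is at 259 CPM and a score of 3.27. Right, Pearson r of each tested member with the score over all 14 libraries (filled) and over the 10 with numeric labels (open); HIST1H2BK, HIST1H4I, HIST3H2A and HIST1H2BN lie left of 0 in both.

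The members that varied together can be seen from their correlations with each other over the 14 libraries, given as a description, since all points share library depth and Control replicate 1-2. Over 253 pairs of tested members the median r was 0.45, from -0.32 to 0.92. HIST1H2BD was most like HIST1H2AG and HIST1H2BE (r = 0.92 each), HIST1H1C and HIST1H2AC (r = 0.91 each). HIST1H2BK, HIST1H4I and HIST3H2A had the lowest median r with the other members (0.14, 0.21 and 0.23), against 0.64 for HIST1H2AC and HIST1H1C.

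Several H2A and H2B genes lie head to head, so that their promoters are the same DNA read from opposite strands. The window of HIST1H2AC (RefSeq symbol H2AC6), chr6:26123922-26124221 on the plus strand of GRCh38.p14, shares 255 of its bases with that of HIST1H2BC. It is shown because it stands before the member with the most counts, from 250 bases before to 50 after the start, with matches on either strand to the CCAAT box, the TATA box and the octamer, whose letters are given after it, in capitals. No matches in it overlap.
HIST1H2AC promoter: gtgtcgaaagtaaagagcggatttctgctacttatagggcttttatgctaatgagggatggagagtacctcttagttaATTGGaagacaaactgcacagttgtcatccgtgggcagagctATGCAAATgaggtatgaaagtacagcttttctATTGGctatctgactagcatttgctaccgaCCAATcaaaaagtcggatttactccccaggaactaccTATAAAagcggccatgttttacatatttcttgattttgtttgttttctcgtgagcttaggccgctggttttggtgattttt
All 27 kept members matched a RefSeq promoter. The letters CCAAT, which the factor NF-Y is known to bind, occurred on either strand in 22 of them, against 34.6% of the 35116 promoters in the table. The TATA box, searched as TATAAA on either strand anywhere in the window, occurred in 17 kept members, against 11.5% of all promoters. A match need not be the TATA box of that gene. The octamer, searched as ATTTGCAT and known to be bound by POU2F1, occurred in 8, against 1.77%. Of the 30 members not kept that matched a promoter, 26 held CCAAT, 21 TATAAA and 16 the octamer. These motifs were thus not particular to the kept members. Where 2 genes share a window, a match in the shared bases counts for both. The octamer was found in 3 of 6 H2A and 5 of 9 H2B promoters, and the CCAAT box in 1 of 6 H4 promoters. Despite the shared window, HIST1H2AC and HIST1H2BC had an r of 0.30 over the 14 libraries, below the median of all pairs, and HIST3H2A and HIST3H2BB, which share 271 bases, had 0.19. HIST1H2AG and HIST1H2BJ had 0.59, and HIST1H2AK and HIST1H2BN had 0.52.

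The members below the count rule had few counts outside a single library. For the 12 HIST2 members this cannot be read as low expression. For the other 28 it is not read here as low expression either. How far it depends on their annotation or on the capture of polyadenylated RNA was not tested. All 40 together summed to 3.27 CPM (322 counts) in TRA2B-OE replicate 1-2 and to 0.827 CPM or less in each other library. In that library 13 of these members had 10 or more counts, among them the S-phase genes HIST1H1B (45 counts), HIST1H3B (40) and HIST1H4C (32). Elsewhere HIST1H1B had 0 to 3, HIST1H3B 0 to 5 and HIST1H4C 0 to 8 counts. The highest CPM of 19 of the 25 members with any count was in this library, and so was that of 9 kept members, HIST1H1E among them (79 counts). The rule counted libraries and not groups, so members kept just inside it, HIST1H2BL, HIST1H4D and HIST1H1D with 10 or more counts in 2 libraries, counted this library among those 2. HIST1H3F, HIST1H3C and HIST1H2BO, with 62, 67 and 63 counts in all, fell just outside.

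**Figure D5:**
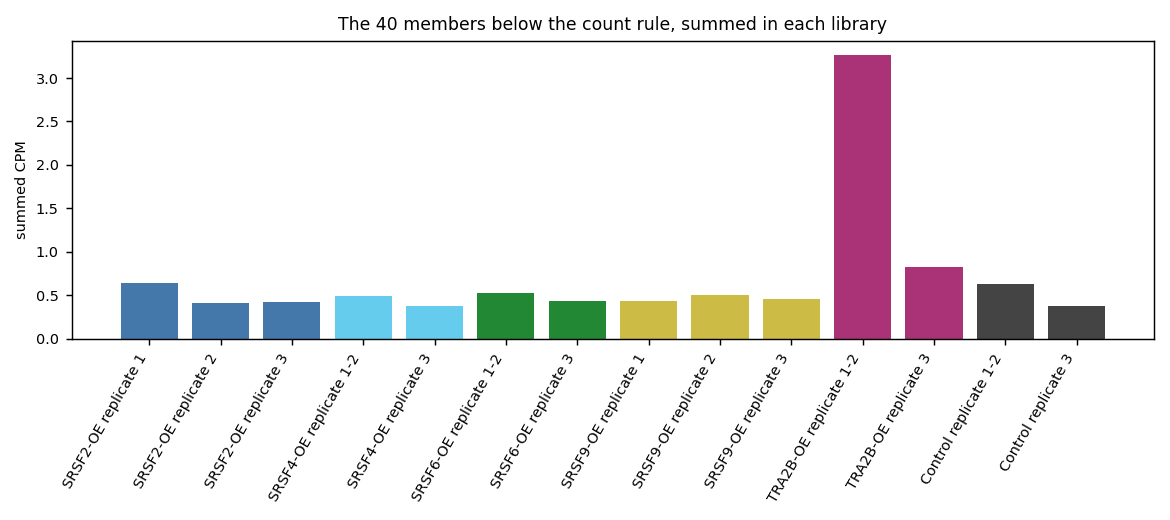
Summed CPM (y axis, from 0) of the 40 members below the count rule in each of the 14 libraries (x axis). TRA2B-OE replicate 1-2 reaches 3.27 CPM and no other library exceeds 0.827 CPM.

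Genes that act on histone mRNA and histones were compared from lists, with the calls read against the background shares above. SLBP varied little, at 31.9 to 45.4 CPM over the 14 libraries, and passed neither tool in any contrast. Of the 22 histone mRNA factors tested, edgeR called 0 in each contrast, and DESeq2 called 1 lower in SRSF2-OE, 2 lower in SRSF4-OE, 1 lower and 2 higher in SRSF6-OE, 0 in SRSF9-OE and 1 lower in TRA2B-OE. In that order of groups, DESeq2 called 2.37%, 2.7%, 5.81%, 0.0704% and 2.12% of all genes in either direction. TUT7, a terminal uridylyltransferase that marks histone mRNA for decay, was at 119 and 69.9 CPM in SRSF4-OE, 131 and 106 CPM in SRSF6-OE, and 341 and 167 CPM in Control, with log2 fold changes of -1.40 in SRSF4-OE and -1.04 in SRSF6-OE (DESeq2 adjusted p = 0.000381 and 0.0114; edgeR adjusted p = 0.212 and 0.144). All libraries of both groups lay below both Control libraries, and so did those of the groups whose histone members showed no common direction, SRSF2-OE (131, 99.0 and 141 CPM), SRSF9-OE (118, 101 and 121 CPM) and TRA2B-OE (138 and 131 CPM).

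ERI1, the exonuclease that trims the histone stem-loop end, was at 19.7 and 22.1 CPM in SRSF6-OE and 11.5 CPM in both Control libraries (log2 fold change 0.86, DESeq2 adjusted p = 0.0186; edgeR adjusted p = 0.160). SRSF4-OE (13.2 and 14.2 CPM) and TRA2B-OE (18.9 and 12.7 CPM) also lay above both Control libraries. SRSF2-OE (11.3, 9.49 and 10.7 CPM) lay below both, and SRSF9-OE (11.6, 13.6 and 9.56 CPM) on either side. UPF1, a helicase that takes part in histone mRNA decay, was at 123 and 149.9 CPM in SRSF6-OE and 88.6 and 94.1 CPM in Control (log2 fold change 0.57, DESeq2 adjusted p = 0.0482; edgeR adjusted p = 0.172). Every library of the other overexpression groups also lay above both Control libraries. These were SRSF2-OE (109, 137 and 96.3 CPM), SRSF4-OE (103 and 124 CPM), SRSF9-OE (115, 108 and 126 CPM) and TRA2B-OE (96.7 and 110 CPM). XRN1, the 5′ to 3′ exonuclease, was lower by DESeq2 in SRSF2-OE, SRSF4-OE and TRA2B-OE, with edgeR log2 fold changes of -0.66, -0.64 and -0.65. It ran from 34.5 to 43.0 CPM in those 3 groups, against 73.0 and 50.9 CPM in Control. The other groups also lay below both Control libraries, SRSF6-OE at 48.6 and 47.3 CPM and SRSF9-OE at 45.1, 49.8 and 44.5 CPM.

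Of the 12 histone variant genes, which are expressed outside S phase or have roles of their own, edgeR called 0 in each contrast. H1F0, the linker histone of cells that leave the cycle, was lower by DESeq2 in SRSF2-OE, SRSF4-OE and SRSF6-OE, with edgeR log2 fold changes of -1.24 ± 0.28, -1.15 ± 0.28 and -1.16 ± 0.28 and edgeR adjusted p-values of 0.171, 0.224 and 0.152. It was at 55.2, 54.4 and 43.3 CPM in SRSF2-OE, 58.4 and 59.9 CPM in SRSF4-OE, 65.2 and 53.9 CPM in SRSF6-OE, and 177 and 94.8 CPM in Control. TRA2B-OE, at 68.2 and 68.5 CPM, also lay below both Control libraries, while SRSF9-OE, at 88.3, 154 and 122 CPM, overlapped them. H2AFX, which marks DNA breaks and makes both stem-loop and polyadenylated mRNA, was higher by DESeq2 in TRA2B-OE (28.9 and 54.7 CPM against 8.68 and 19.8 CPM in Control, log2 fold change 1.59, DESeq2 adjusted p = 0.0202, edgeR adjusted p = 0.225). SRSF2-OE (57.9, 22.6 and 37.7 CPM) and SRSF6-OE (24.5 and 22.3 CPM) also lay above both Control libraries. SRSF4-OE (19.0 and 33.2 CPM) and SRSF9-OE (22.6, 17.6 and 15.5 CPM) overlapped them.

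Of the 17 histone chaperone genes tested, DESeq2 called 2 higher in SRSF6-OE, against 3.78% of all genes, and 0 in the other contrasts, and edgeR called 0. Of these 2, CHAF1A is also on the replication list and is among the replication genes called above. SSRP1, a subunit of FACT, was at 245 and 277 CPM in SRSF6-OE and 135 and 180.3 CPM in Control (log2 fold change 0.73, DESeq2 adjusted p = 0.00229, edgeR adjusted p = 0.136). CHAF1A, of the CAF-1 complex that deposits histones at replication forks, was at 29.7 and 22.4 CPM in SRSF6-OE and 11.1 and 13.97 CPM in Control (log2 fold change 1.07, DESeq2 adjusted p = 0.0496, edgeR adjusted p = 0.182). SSRP1 was also above both Control libraries in SRSF4-OE (199 and 224 CPM), SRSF9-OE (194, 206 and 201 CPM) and TRA2B-OE (214 and 217 CPM). The same held for CHAF1A in SRSF4-OE (20.8 and 26.7 CPM) and TRA2B-OE (25.5 and 29.3 CPM). Neither gene was above both in every SRSF2-OE library, nor was CHAF1A in every SRSF9-OE library. In SRSF6-OE 23 of 23 tested histone members had log2 fold changes below 0, while in SRSF9-OE and TRA2B-OE they showed no common direction.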

How the data were processed

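Per the labels' protocols, RNA was purified on columns with DNase treatment and sequenced as paired reads of 101 bases after a stranded mRNA kit. The submitters' processing notes name Trimmomatic 0.36, STAR 2.5.1b, featureCounts and Subread, and the build GRCh37. The deposited values are whole-number read counts per gene made by the authors; strand use and multi-mapping are not given in the sources used here.

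Gene IDs were matched to GENCODE release 29 symbols, and lanes of a library were summed. Library totals ran from 42959069 to 121601376 counts, and intervals on low counts would cover counting error only. CPM used TMM library sizes. edgeR 4.0.16 (R 4.3.3) fitted group and label set over 14 libraries with 7 residual degrees of freedom, after its filter at a minimum count of 10. Adjusted p-values are Benjamini-Hochberg over 21326 genes with a threshold of 0.05. DESeq2 1.42.0 and limma 3.58.1 were alternatives. The code was tested on simulated data. Correlations used log2 CPM with a prior count of 2 and scipy 1.17.1.

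Members and gene lists were chosen with earlier results of these data known. Named are the 12 members with the highest mean CPM, members past the threshold by edgeR (or DESeq2 where edgeR called none), SLBP and up to 4 such genes of each list; fold changes are printed at an unadjusted edgeR p under 0.05 or a DESeq2 call. Members singled out beyond this rule were chosen after their values were seen. Comparisons of single libraries within a label set were chosen after seeing the data and have no test. Whether same-numbered replicates pair could not be told.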

Additional observations from a re-analysis of the deposited data

Results flagged for a closer look

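The 40 members below the count rule enter no comparison of the report, and their summed CPM exceeded the highest Control library, Control replicate 1-2 at 0.627 CPM, in 3 libraries. TRA2B-OE replicate 1-2 reached 3.27 CPM, TRA2B-OE replicate 3 reached 0.827 CPM and SRSF2-OE replicate 1 reached 0.643 CPM. TRA2B-OE replicate 1-2 held 322 of these counts and TRA2B-OE replicate 3 held 42, against 82 and 19 in Control. The value of SRSF2-OE replicate 1 is close to that of Control replicate 1-2.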

How the results depend on the processing

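No member was called by edgeR in any contrast, the F test or the correlation. Leaving out each replicate in turn also gave 0 (lowest 0, highest 0), which says nothing about stability, since few genes were called at all. DESeq2 called 3 members in SRSF6-OE (5.81% of all genes) and 2 over the 6 groups (7.42%). Treating the 18 samples as separate, which counts lanes of a library as replicates, called 7 of 24 members in SRSF4-OE (16.5% of all genes), 13 in SRSF6-OE (19.2%), 2 in TRA2B-OE (13.8%) and 7 in the F test (17.7%). Fitting only the libraries compared called 1 in SRSF4-OE (12.2%), the proliferation score as covariate called 5 in SRSF6-OE (18.2%), and centring within group called 2 in the correlation (12.7%); apart from the lanes, the cause was not tested. With replicate block, 0 members were called. Same-numbered libraries correlated at -0.42 to 0.494 and others at -0.587 to 0.517. These ranges cannot tell whether the numbers pair libraries, since levels were centred within each group. In a group of 2 libraries the deviations are then mirror images. Of 425 alternative values of the named fold changes, 0 reversed. Those fold changes were picked for a low p in the same libraries, so that count says little about stability. The median over 23 members did change sign in SRSF4-OE, from -0.51 to 0.07 without Control replicate 1-2. It also changed sign in SRSF2-OE, SRSF9-OE and TRA2B-OE when a Control library was left out. In SRSF6-OE it stayed below 0, at -1.40 to -0.40 with each library left out in turn. With only 2 Control libraries, differences from Control are limited by the gap between them.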

Other observations

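TRA2B-OE replicate 1-2, the library with the most counts in members below the rule, also stood apart in other short RNAs that are known to lack a poly(A) tail or to be mostly without it. RMRP, the RNA of RNase MRP, was at 52.0 CPM there, against 0.225 to 10.4 CPM in the other 13 libraries. SNORD3A, the U3 small nucleolar RNA, was at 65.8 CPM, against 0.171 to 7.46 CPM. RNU4-2, the U4 spliceosomal RNA, was at 2.09 CPM, against 0 to 0.395 CPM, and TERC, the telomerase RNA, at 0.771 CPM, against 0.0201 to 0.158 CPM. RN7SK was listed at 0 in every library. Genes annotated as small nucleolar RNAs summed to 121 CPM in this library, against 25.7 to 51.9 CPM. These RNAs were chosen after the histone values were seen, and their part in the histone result was not tested.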
